A study of Mus musculus with 24 samples.

Results

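The comparison described here asks how far the response of macrophages to IL-4 depends on the kinase MK2. It is the difference of 2 differences: the IL-4 change in MK2 knockout (KO) cells minus the IL-4 change in wild-type (WT) cells. All 24 of the 24 RNA-seq libraries of the series entered it, 6 in each of 4 groups. Bone marrow of C57BL/6N mice, MK2 WT or MK2 KO, was grown with 10 ng/ml M-CSF, the growth factor that turns marrow precursors into macrophages. The cells were replated on day 7 and either left unstimulated (M0) or given 10 ng/ml IL-4 (M2) and harvested at 24 h. The labels do not describe the knockout allele, the age or sex of the mice, or whether the replicates of a group came from separate animals, so the p-values below measure the spread between these libraries. Each genotype has 6 LS numbers in the library labels, and every LS number names 1 M0 and 1 M2 library. An LS number is called a culture number here, although the labels do not say what it stands for.

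IL-4 acts through a receptor whose JAK kinases phosphorylate STAT6, which enters the nucleus and binds paired TTC and GAA sites, and the resulting macrophage state is called alternative activation. MK2, encoded by Mapkapk2, is the kinase downstream of p38 that phosphorylates tristetraprolin and other proteins bound to AU-rich messenger RNAs, and so sets how long the messages of TNF and similar factors last. The comparison asks whether the RNA response to the first pathway is altered when a kinase of the second is missing.

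Of 54429 gene symbols in the deposited table, 12797 had enough counts to be tested, and they held 99.8% of all counts. Libraries held between 7893809 and 13492507 counts. Mapkapk2 itself was lower in every KO library: WT libraries held 100 to 139 CPM (the share of a library's counts, scaled between libraries by the TMM method) and KO libraries 47.8 to 63.4. Summed marker levels are CPM of total counts, without the TMM scaling. Summed stromal and fibroblast markers (20 genes, collagens among them) were at 257 CPM ± 38.5 (SD, n = 6) in WT M0 and 206 ± 24.9 in WT M2. In KO M0 they were at 24.4 ± 11 and in KO M2 at 21.9 ± 6.67. Summed macrophage markers (12 genes) ranged from 15255 to 23506 CPM over all libraries. In bulk RNA, fewer cells of a type and less RNA per cell cannot be told apart. Library numbers in the labels place replicates 1 to 3 and replicates 4 to 6 of all groups in 2 sets, and 3 libraries (WT M0 replicate 3, WT M2 replicate 2 and KO M2 replicate 2) are numbered apart.

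No gene's IL-4 response differed between the genotypes past the threshold (edgeR quasi-likelihood test, adjusted p under 0.05 over all genes tested: 0 of 12797, 0.0%). The smallest adjusted p was 0.406 and was shared by 6 genes, among them Lrrc32, Mgl2 and Inpp5a. Without adjustment, 244 genes (1.91%) had a p under 0.05 with a higher response value in KO and 146 (1.14%) with a lower one, 390 in all. DESeq2 called 1 gene (Mgl2) and limma on log2 values called 3 (Lrrc32, Mgl2 and S1pr3). With the culture number as a block, so that each M2 library was set against the M0 library of its own number, edgeR called 2 genes (0.0156%), Csf1 and Lrrc32. With the library set as a term in every group, it called 3: Csf1, Lrrc32 and Sh3pxd2a.

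The test had the precision to bound many of these differences. A gene's difference had a median SE of 0.16 on the log2 scale and a median 95% interval reaching 0.33 to either side. Of the 3333 genes that IL-4 changed in at least 1 genotype, the interval lay within 0.5 of 0 for 1883 (56.5%) and within 1 of 0 for 2892 (86.8%). The largest fitted differences were in weakly expressed genes: 58 genes had a difference of more than 2, of which 47 had an average log2 CPM under 2 and 16 an unadjusted p under 0.05.

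The 2 responses ran in the same direction. In WT, IL-4 raised 1086 genes (8.49%) and lowered 1017 (7.95%). In KO it raised 1563 (12.2%) and lowered 1461 (11.4%). That balance of directions depended on the scaling, since total counts in place of TMM gave 899 higher and 1119 lower in WT and 899 higher and 2809 lower in KO. The 1794 genes called in both genotypes had the same direction in each case, which is 85.3% of the WT calls and 59.3% of the KO calls. Another 309 were called in WT and not in KO, and 1230 in KO and not in WT. That a gene passed in 1 genotype and not in the other does not show a difference, which needs the test of the difference itself; in the fit of all 24 libraries without a block no gene passed that test.

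Among the 1794 shared calls, the fitted change was larger in KO for 1431 (79.8%), with a median ratio of KO to WT log2 change of 1.20. This held for 797 of 962 shared rises and 634 of 832 shared falls. Within replicates 1 to 3 it held for 1234 of 1793 genes (68.8%), and within replicates 4 to 6 for 1336 of 1790 (74.6%). The balance between rises and falls depended on the scaling: with total counts in place of TMM the differences shifted by -0.10 in the median, and the KO change was then the larger for 470 of the 962 rises and for 779 of the 832 falls. These counts have no test of their own, because genes of 1 library are not independent.

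**Figure D1:**
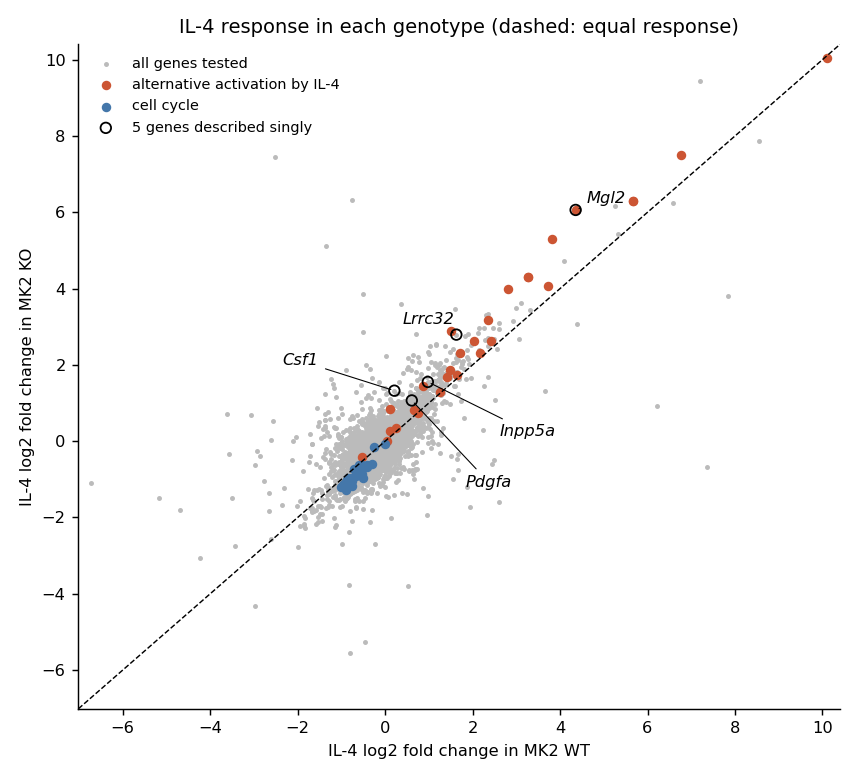
IL-4 log2 fold change in MK2 WT (x axis) and MK2 KO (y axis) for the 12797 genes tested, with the 28 tested genes of alternative activation in red, the 36 cell cycle genes in blue and the 5 genes described singly circled. Most genes lie along the dashed line of equal response, most red points lie above it, and most blue points lie below it.

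Mgl2, Lrrc32, Inpp5a, Pdgfa and Csf1 were known from earlier results on these libraries to stand near the top of the comparison, so their values are a description and not a new test. They fell into 2 patterns. Mgl2, Lrrc32, Inpp5a and Pdgfa did not differ between the genotypes past the threshold without IL-4 and were higher in KO with it. Csf1 was lower in KO in both states, and the gap was smaller with IL-4. The share of all tested genes that differed between the genotypes (adjusted p under 0.05) was 4.52% without IL-4 and 4.59% with it.

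Mgl2 encodes a galactose-binding C-type lectin of the macrophage surface and is a textbook marker of the IL-4 state in mice. In WT it stood at 0.502, 0.825, 1.64, 0.777, 0.739 and 1.04 CPM in M0 replicates 1 to 6, and at 23.7, 25.6, 21.6, 15.1, 15.4 and 17.6 CPM in M2. In KO it stood at 0.348, 0.700, 0.504, 0.361, 1.27 and 0.722 CPM in M0, and at 50.4, 50.4, 42.0, 39.7, 50.5 and 39.3 CPM in M2. The genotypes overlapped without IL-4 and did not overlap with it, every KO M2 library being above every WT M2 library. IL-4 raised Mgl2 by 4.36 log2 units in WT and 6.06 in KO, a difference of 1.71 (SE 0.37, adjusted p = 0.406). The direct comparison of genotypes gave -0.52 without IL-4 (adjusted p = 0.504) and 1.19 with IL-4 (adjusted p = 3.97e-06). Because the M0 libraries held only 56 counts of Mgl2 in WT and 40 in KO in all, the fold within each genotype is less precise than the M2 levels.

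Lrrc32 encodes GARP, the surface protein that holds latent TGF-beta for activation. Its WT levels were 2.51, 2.94, 2.66, 2.14, 2.64 and 2.42 CPM in M0 and 8.26, 10.0, 6.56, 8.85, 7.22 and 6.40 CPM in M2. In KO they were 1.97, 2.00, 1.21, 2.44, 2.38 and 3.13 CPM in M0 and 15.9, 14.1, 10.7, 15.1, 17.9 and 17.5 CPM in M2. All 6 KO M2 libraries were above all 6 WT M2 libraries, and the M0 ranges overlapped. The IL-4 change was 1.63 in WT and 2.79 in KO, a difference of 1.16 (SE 0.24, adjusted p = 0.406). With the culture number as a block the difference was 1.20 (SE 0.17, adjusted p = 0.0206). That call lay near the threshold. It was kept in 4 of the 12 fits that left out 1 culture each (WT 3, WT 4, KO 4 or KO 6). It was lost without any 1 of WT 1, WT 2, WT 5, WT 6, KO 1, KO 2, KO 3 or KO 5, at adjusted p of 0.0508 to 0.0884. The difference itself stayed between 1.13 and 1.29 in these 12 fits (SE 0.17 to 0.19). Between genotypes, Lrrc32 differed by 0.94 with IL-4 (adjusted p = 6.95e-05) and by -0.22 without (adjusted p = 0.639).

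Inpp5a encodes an inositol polyphosphate 5-phosphatase, which removes a phosphate from inositol trisphosphate and so ends its calcium signal. WT libraries held 15.3 to 18.8 CPM in M0 (median 16.4) and 26.2 to 37.1 in M2 (median 33.5). KO libraries held 12.6 to 15.7 CPM in M0 (median 13.9) and 35.0 to 48.6 in M2 (median 41.5). The ranges of the genotypes overlapped in each state. The changes within cultures did not, running from 0.59 to 1.09 in WT and from 1.11 to 1.67 in KO on the log2(CPM + 1) scale. For genes chosen for this difference such a gap is a description, and its share over all genes was not counted. The fitted change was 0.98 in WT and 1.55 in KO, a difference of 0.58 (SE 0.13, adjusted p = 0.406). Between genotypes, Inpp5a differed by -0.25 without IL-4 (SE 0.09, adjusted p = 0.156) and by 0.32 with it (adjusted p = 0.0283). The lower KO level in M0 is thus a part of its difference.

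Pdgfa encodes a growth factor for fibroblasts and other mesenchymal cells. It was at 13.6 to 15.8 CPM in WT M0 and 13.7 to 16.8 in KO M0, and at 20.5, 24.1, 22.4, 25.0, 19.7 and 22.9 CPM in WT M2 against 38.1, 36.6, 30.6, 29.4, 28.2 and 29.6 in KO M2. Every KO M2 library was above every WT M2 library. The difference between the responses (0.61 in WT, 1.07 in KO) was the smallest of the 5 genes, at 0.46 (SE 0.12, adjusted p = 0.723), and the changes within cultures overlapped, with 0.38 to 0.84 in WT and 0.82 to 1.36 in KO. With IL-4 the genotypes differed by 0.52 (adjusted p = 8.44e-05).

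Csf1 encodes M-CSF, the growth factor on which these macrophages depend and which was also added to the medium. WT libraries held 42.3, 31.5, 31.0, 34.5, 38.9 and 30.5 CPM in M0 and 47.3, 33.6, 35.3, 38.9, 47.5 and 39.2 CPM in M2. KO libraries held 9.16, 12.7, 9.89, 4.79, 6.29 and 7.22 CPM in M0 and 29.3, 25.6, 22.2, 14.4, 17.6 and 15.1 CPM in M2. The WT level barely moved with IL-4 (0.21, adjusted p = 0.458), while the KO level rose by 1.32 (adjusted p = 1.38e-05) and still stayed under every WT library. The difference was 1.11 (SE 0.26, adjusted p = 0.494).

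Setting each M2 library against the M0 library of its own culture narrowed the error for this gene. Within cultures the change was 0.09 to 0.35 in WT and 0.96 to 1.58 in KO, with no overlap, although the 6 KO cultures themselves spread widely in level. With the block the difference was again 1.11, with an SE of 0.12, an adjusted p of 0.0007 and a 95% interval from 0.86 to 1.36, and it was called in all 12 fits that left out 1 culture each. In fits without the block, each library set alone gave nearly the same size, 1.10 in replicates 1 to 3 (adjusted p = 1.00) and 1.11 in replicates 4 to 6 (adjusted p = 0.0317). Csf1 was lower in KO by 2.06 without IL-4 (adjusted p = 2.99e-08), and fell short of WT by less with IL-4, at -0.95 (adjusted p = 0.00102). Stromal cells also make M-CSF, and all 18 tested stromal markers were lower in KO in both states. The part of stromal cells in the Csf1 difference was not tested.

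**Figure D2:**
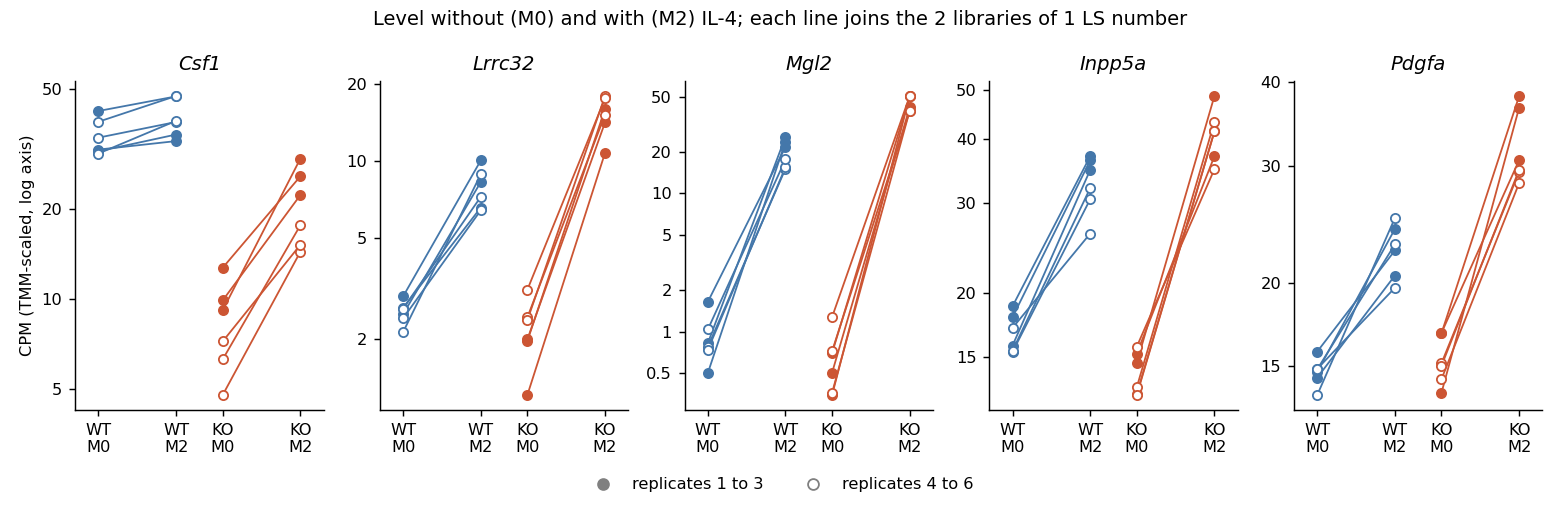
Level (TMM-scaled CPM, log axis) of 5 genes in the WT and KO cultures without (M0) and with (M2) IL-4; each line joins the 2 libraries of 1 culture number, and filled and open points mark replicates 1 to 3 and 4 to 6. For Mgl2, Lrrc32 and Pdgfa the KO M2 points lie above all WT M2 points, and for Csf1 the KO lines climb under the nearly flat WT lines.

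**Figure D3:**
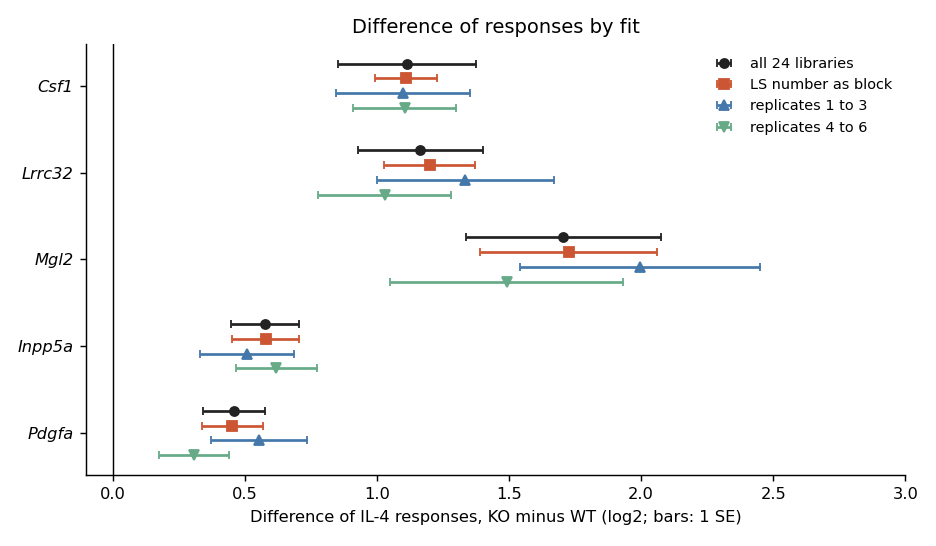
Difference of the IL-4 responses, KO minus WT, on the log2 scale for the 5 genes in 4 fits (points) with 1 SE (bars). All 20 points lie above 0, and the block on culture number shortens the bar of Csf1 from 0.26 to 0.12.

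The 5 genes are spread over the genome. In GRCm38 (mm10) with the GENCODE M21 annotation, Mgl2 lies on chromosome 11 (70130329 to 70137550, + strand), Lrrc32 on chromosome 7 (98489283 to 98502181, + strand) and Inpp5a on chromosome 7 (139389109 to 139579652, + strand). Csf1 lies on chromosome 3 (107741048 to 107760469, - strand). The sequence around the start of transcription was searched for the STAT6-type pairs TTCNNNGAA and TTCNNNNGAA, which read the same on both strands and, having different spacing, are counted separately. Of 32851 RefSeq promoters of mouse (250 bases before to 50 after the start), 8.3% held the first and 6.95% the second. Windows were found for Csf1, Mgl2, Inpp5a (2 starts) and Pdgfa (2 starts), and 1 of these 6 windows held a match, the second start of Inpp5a. Shown are the windows of the 2 genes with the largest difference among those in the table, and the window with the match, in GRCm38.p6 and 5′ to 3′ on the gene's own strand; capitals mark the TTCNNNGAA match, which begins 81 bases before the start.
Mgl2 (chr11:70130107-70130406, + strand): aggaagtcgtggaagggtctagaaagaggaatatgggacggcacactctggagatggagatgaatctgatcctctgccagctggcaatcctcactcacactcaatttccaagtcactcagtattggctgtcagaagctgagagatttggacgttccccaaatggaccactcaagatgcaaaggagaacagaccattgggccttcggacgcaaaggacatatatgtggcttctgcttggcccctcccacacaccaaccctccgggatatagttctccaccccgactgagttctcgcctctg
Csf1 (chr3:107760420-107760719, - strand): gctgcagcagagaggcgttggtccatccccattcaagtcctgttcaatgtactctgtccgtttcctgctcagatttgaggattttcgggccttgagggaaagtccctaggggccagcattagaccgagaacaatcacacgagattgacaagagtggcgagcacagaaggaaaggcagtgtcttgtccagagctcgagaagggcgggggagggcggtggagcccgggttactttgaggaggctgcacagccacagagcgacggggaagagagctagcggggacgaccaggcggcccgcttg
Inpp5a, second start (chr7:139400244-139400543, + strand): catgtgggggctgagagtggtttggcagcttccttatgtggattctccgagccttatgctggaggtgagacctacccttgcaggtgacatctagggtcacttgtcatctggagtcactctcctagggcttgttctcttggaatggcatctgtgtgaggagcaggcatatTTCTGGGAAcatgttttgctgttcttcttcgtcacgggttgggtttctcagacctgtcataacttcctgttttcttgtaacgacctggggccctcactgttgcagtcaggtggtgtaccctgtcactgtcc
A match is a description of the letters and not a bound site.

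After these 5 genes, those with the smallest p were chosen with their values in view. Sh3pxd2a, which encodes the podosome scaffold TKS5, moved the other way: it fell by 0.53 in WT and by 1.02 in KO, a difference of -0.49 (SE 0.11, adjusted p = 0.406). Its changes within cultures, from -0.70 to -0.29 in WT and from -1.18 to -0.79 in KO, did not overlap. That is a description of a gene picked by its p, and the share of such genes was not counted. With the library set as a term in every group Sh3pxd2a was called (difference -0.49, adjusted p = 0.0105). Cp, encoding the copper-binding ferroxidase ceruloplasmin, was at 2.95 to 6.47 CPM in all WT libraries. In KO it fell by 1.21, from 2.89 to 4.60 CPM in M0 to 0.753 to 2.04 in M2, so that its difference was -1.20 (SE 0.27, adjusted p = 0.406). Dhrs9, a retinol and steroid dehydrogenase, rose by 0.98 in WT and 1.49 in KO, a difference of 0.50 (SE 0.12, adjusted p = 0.685), and was higher in KO in both states. Mrrf, a mitochondrial ribosome recycling factor, had a difference of 0.44 (SE 0.11, adjusted p = 0.685).

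Ddah1 and Dclk1 shared the Csf1 pattern at much lower levels. Ddah1 held 105 counts over the WT M0 libraries and 77 over WT M2, against 0 counts over KO M0 and 10 over KO M2. Its fitted difference rests on the zero and is no measure of size. Dclk1 held 3.91 to 5.63 CPM in WT M0 and 0.116 to 0.632 in KO M0, and 0.565 to 1.56 in KO M2, a difference of 1.44 (SE 0.37, adjusted p = 0.723). The matrix gene Postn, a member of the stromal list, had a difference of 0.88 (unadjusted p = 0.0145). The stromal list as a whole had a median difference of 0.24 with 14 of 18 genes above 0, and its genes were lower in KO in both states, as given above. The part of these cells in the differences of Ddah1, Dclk1 and Postn was not tested.

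The genes of alternative activation responded to IL-4 in both genotypes. Of 36 listed genes 28 were tested, and IL-4 raised 24 and lowered 1 of them in WT and likewise 24 and 1 in KO. The difference of responses was above 0 in 25 of the 28, with a median of 0.48, beside 52.6% of all genes above 0 and a median of 0.01. Leaving out the single gene with no count in either M0 group, Rnase2a, the list median was 0.37. Among all genes raised in both genotypes, the KO change was the larger for 797 of 962, so under TMM this lean was not particular to the list. With total counts in place of TMM it was the larger for 470 of those 962, and 23 of the 28 were above 0. Whether the list leaned more than other raised genes was not tested. No member passed the adjusted threshold, and 6 had an unadjusted p under 0.05, all with the higher value in KO. Among all 12797 genes, 244 (1.91%) had such a p in that direction. Mgl2, itself a member and chosen for this difference, had the smallest p of the 6.

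Fn1 and Slc7a2 followed. Fn1, encoding fibronectin, rose by 1.51 in WT and 2.89 in KO, a difference of 1.38 (SE 0.40, unadjusted p = 0.00217). Like Csf1 it was lower in KO without IL-4, at 13 to 30.8 CPM against 59.7 to 133, and on the linear scale the difference of responses was -53.9 CPM (exact permutation test over 6 cultures of each genotype, two-sided p = 0.390). Slc7a2, the arginine transporter that feeds arginase, rose by 3.26 in WT and 4.31 in KO, a difference of 1.05 (SE 0.33, unadjusted p = 0.00386). The pattern-recognition lectin gene Clec7a rose by 0.87 and 1.45 (difference 0.58, unadjusted p = 0.0143). Flt1, a receptor for VEGF, rose by 2.81 and 4.00 (difference 1.19, unadjusted p = 0.0229), and its M2 level also differed between the genotypes (1.18, adjusted p = 0.00376).

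Several of the best known members had differences near 0 or with a large error. The mannose receptor gene Mrc1 rose by 0.76 in WT and 0.73 in KO. Retnla, encoding the secreted protein FIZZ1, was nearly absent without IL-4 and at 22.9 to 95.3 CPM in WT M2 and 49.7 to 129 in KO M2, ranges that overlap widely (adjusted p = 0.358 between the genotypes). Arg1, encoding arginase, held 8 counts in each M0 group in all, and its difference of 0.64 had an SE of 0.83. For Chil3, the chitinase-like protein Ym1, the difference was 0.33 (SE 0.54).

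The list median took different values in the 2 library sets. Taken within cultures on the log2(CPM + 1) scale, it was 1.82, 1.88, 1.46, 1.10, 0.98 and 1.14 in WT replicates 1 to 6, and 2.03, 2.17, 1.67, 1.93, 1.94 and 1.99 in KO. The KO cultures of replicates 1 to 3 overlapped the WT cultures of the same set, while those of replicates 4 to 6 were all well above theirs. The median difference of the fit was 0.17 in replicates 1 to 3, with 19 of 28 members above 0, and 0.79 in replicates 4 to 6, with 22 of 28. Arg1, Chil3, Irf4 and Ear2 were among the 9 members that were not above 0 in replicates 1 to 3. The 5 genes described singly had a difference above 0 in each set. With the set as a term in every group, the genotype difference differed between the sets for 0 of the 28 members (adjusted p under 0.05). Without adjustment, 8 of the 28 had a p under 0.05 in that test, beside 447 of all 12797 genes. For the WT response alone, 12 of the 28 had such a p for a difference between the sets, beside 360 of all genes. For the KO response it was 3 of the 28, beside 773.

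**Figure D4:**
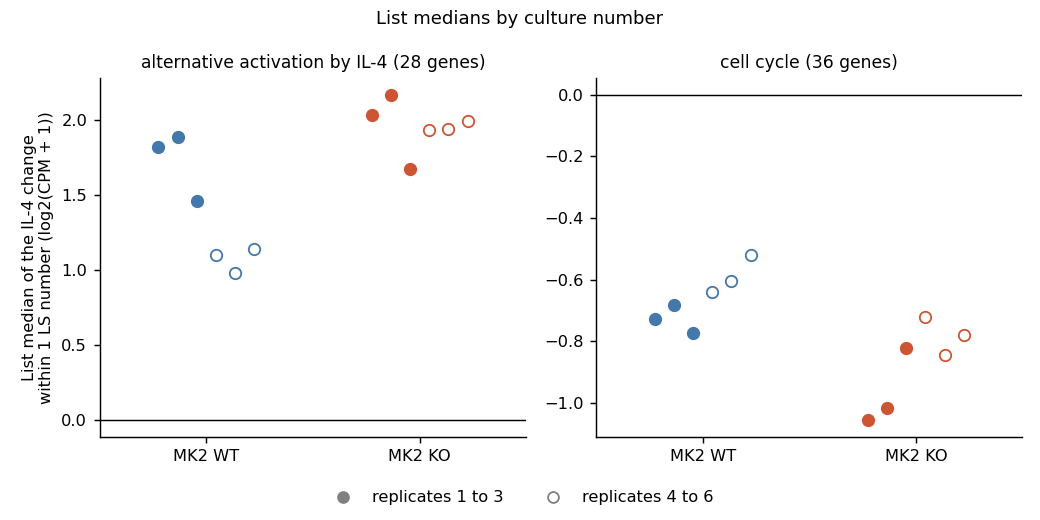
Median IL-4 change (log2(CPM + 1), M2 minus M0 within 1 culture number) of the 28 alternative activation genes (left) and the 36 cell cycle genes (right) in each WT and KO culture; filled and open points mark replicates 1 to 3 and 4 to 6. On the left the 3 open WT points, 0.98 to 1.14, lie apart from all others, and on the right the KO points (-1.06 to -0.72) lie mostly under the WT points (-0.77 to -0.52).

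Cell cycle genes fell with IL-4 in both genotypes, with a larger fall in KO (median change -0.69 in WT and -0.93 in KO). All 36 listed genes were tested, and IL-4 lowered 29 in WT and 34 in KO and raised none in either. The difference was above 0 in 1 of 36, with a median of -0.20. Among all genes lowered in both genotypes, the KO change was the larger for 634 of 832, and for 779 with total counts in place of TMM. The negative sign is thus that of a larger fall and was not particular to this list. None had an unadjusted p under 0.05. The genes with the smallest p were Mcm4, a subunit of the replicative helicase (-0.31 in WT, -0.61 in KO, difference -0.30, SE 0.16), and Cdc45, which completes that helicase (-0.51 and -0.95, difference -0.45, SE 0.26). The list median within cultures was -0.73, -0.68, -0.77, -0.64, -0.60 and -0.52 in WT and -1.06, -1.02, -0.82, -0.72, -0.85 and -0.78 in KO, so that 1 KO culture overlapped the WT range. Each set gave a median near -0.20 (-0.19 in replicates 1 to 3, -0.20 in replicates 4 to 6). These genes move together, so their count is not 36 separate observations.

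Upstream of these responses, the 16 genes of the IL-4 receptor and STAT6 pathway had a median difference of -0.03 with 7 above 0. The kinase gene Jak2, itself raised by IL-4, was the member with an unadjusted p under 0.05: it rose by 1.26 in WT and 1.69 in KO (difference 0.44, SE 0.17, unadjusted p = 0.0136). Cish, which encodes a STAT feedback inhibitor, rose by 3.26 and 4.31, but its difference of 1.05 had an SE of 0.71. Of the 18 transcription factors linked to the IL-4 response, 16 had a difference above 0 (median 0.17). In replicates 1 to 3 alone it was 10 of 18 (median 0.05), and in replicates 4 to 6 alone 14 of 18 (median 0.25). Bhlhe40, a basic helix-loop-helix repressor that supports macrophage proliferation, rose by 1.61 and 2.08 (difference 0.47, unadjusted p = 0.0189). The difference of Pparg, a lipid-sensing nuclear receptor, was 0.23 (SE 0.11).

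The AU-rich transcripts controlled by MK2 and tristetraprolin gave no common direction: 20 of 24 were tested, 14 had a difference above 0 and the median was 0.05. Tnf, the classical target, was at 7.60 to 9.91 CPM in WT M0 and 11 to 15.5 in KO M0, without overlap, and at 5.18 to 8.55 and 6.95 to 8.38 CPM with IL-4. It fell by 0.84 in KO (adjusted p = 1.39e-06) and was at -0.31 in WT (adjusted p = 0.0596), a difference of -0.53 (SE 0.15, unadjusted p = 0.0020). The genotype gap in Tnf was thus 0.66 without IL-4 (adjusted p = 0.00015) and 0.12 with it (adjusted p = 0.793). Zfp36, encoding tristetraprolin, rose by 0.35 in KO (adjusted p = 0.0046) and was at -0.07 in WT (difference 0.42, SE 0.13, unadjusted p = 0.0027). Ptgs2, encoding cyclooxygenase 2, had a difference of 1.33 (SE 0.45, unadjusted p = 0.00773) on few counts, with 82 over WT M0, 55 over WT M2, 18 over KO M0 and 28 over KO M2.

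The p38 and MK2 pathway itself (19 of 22 tested) had a median difference of -0.04, with 8 above 0 and no member at an unadjusted p under 0.05. The gene nearest was Rps6ka5, encoding the p38-activated kinase MSK1, which fell by 0.76 in WT and 1.12 in KO (difference -0.36, SE 0.18). Among inflammatory receptors, Cd14, the co-receptor for bacterial lipopolysaccharide, fell by 1.53 and 2.13, a difference of -0.60 (SE 0.25, unadjusted p = 0.0238).

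Growth factors and their receptors showed single genes rather than lists. The 39 tested angiogenic factors had a median difference of 0.11 with 25 above 0 (0.01 and 20 under total count scaling). Besides Flt1 and Pdgfa, none had an unadjusted p under 0.05. Hbegf, an EGF-type ligand, rose by 0.89 in WT and 1.25 in KO (difference 0.36, SE 0.20). Of 10 tested colony-stimulating factor genes, 3 had an unadjusted p under 0.05, beside 390 of all 12797 genes. They were Csf1, itself chosen for this difference, and Csf2rb and Csf2rb2. The last 2 encode the closely related beta chains of the GM-CSF and IL-3 receptors. Csf2rb rose by 1.16 and 1.56 (difference 0.41, SE 0.16) and Csf2rb2 by 0.71 and 0.97 (difference 0.26, SE 0.12). Reads of this near-identical pair could be shared between them, so the 2 values may not be separate.

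The lists that follow had smaller median differences than alternative activation. Among all genes the median was 0.01 and 52.6% were above 0. The 14 cell fusion and osteoclast genes had a median of 0.15 with 10 above 0 (9 in replicates 4 to 6 alone, and 8 under total count scaling). Their list median within cultures (log2(CPM + 1)) was 0.19 to 0.60 in WT and 0.61 to 0.96 in KO. Cd9, a tetraspanin of cell fusion, rose by 0.61 and 0.88 (difference 0.27, SE 0.10). Atp6v0d2, a proton pump subunit, rose by 0.58 and 1.02 (difference 0.44, SE 0.18). Of 21 tested immediate early genes 16 were above 0 (11 in replicates 4 to 6 alone, and 11 under total count scaling), among them Fosl2, an AP-1 subunit (0.64 in WT, 1.03 in KO, difference 0.39, unadjusted p = 0.0048). Slc2a1, the glucose transporter GLUT1, rose by 0.37 and 0.74 (difference 0.37, unadjusted p = 0.00285), while the 23 glycolysis and hypoxia genes had a median of -0.01.

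Of 33 tested interferon-stimulated genes, IL-4 lowered 16 in WT, and lowered 17 and raised 1 in KO. Their difference was above 0 in 8 of 33, with a median of -0.07, and none had an unadjusted p under 0.05. The integrin subunit gene Itga6 fell by 0.51 and 0.97 (difference -0.46, SE 0.19, unadjusted p = 0.0203). Its changes within cultures did not overlap, which is a description of a gene picked by its p. Of 23 heat shock and stress genes 18 were above 0 (median 0.08). Hspa1a, an inducible chaperone gene, had a difference of 1.23 (SE 0.56) at levels under 5 CPM in every library. Cholesterol synthesis genes (24 tested) rose in both genotypes, 16 in WT and 17 in KO, and had a median difference of 0.05. Under total count scaling the medians of cholesterol synthesis, of the heat shock list and of the AU-rich list were -0.05, -0.02 and -0.06, those of the transcription factors and of cell fusion were 0.07 and 0.05, and that of alternative activation was 0.38, with 23 of 28 above 0.

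**Figure D5:**
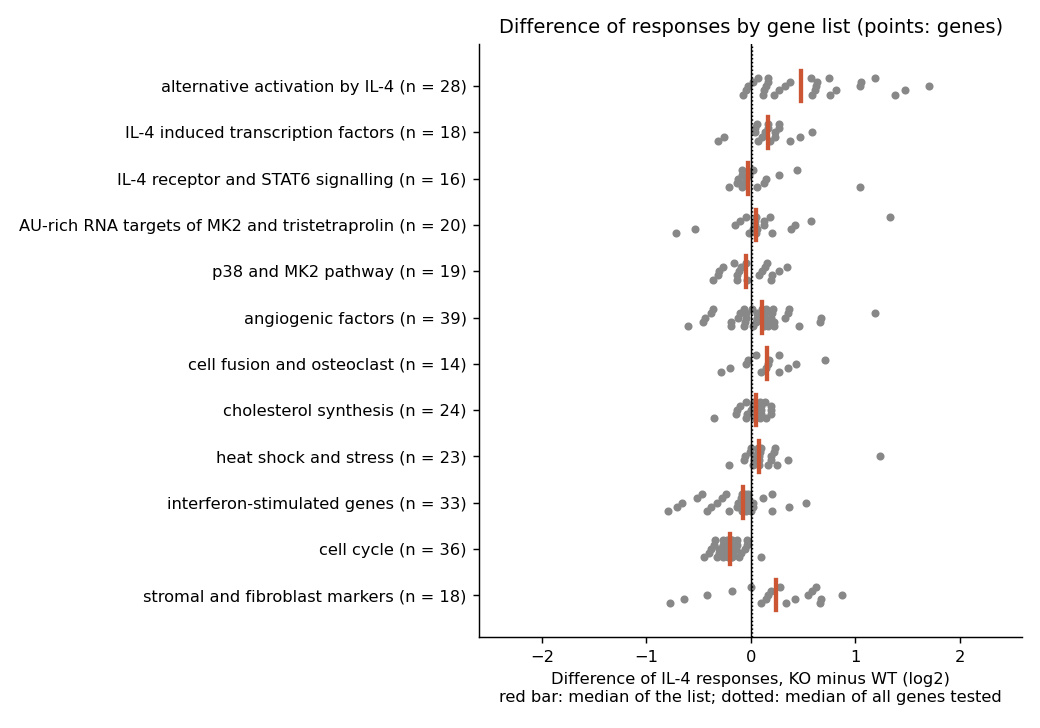
Difference of the IL-4 responses, KO minus WT, on the log2 scale for the tested genes of 12 lists (points), with the list median (red bar), 0 (solid line) and the median of all genes (dotted line). Alternative activation (median 0.48) extends farthest to the right, and nearly all cell cycle genes (median -0.20) lie to the left of 0.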

How the data were processed

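RNA of 24 libraries was sequenced as 40 bp single-end reads, per the labels' protocols. The build was mm10. Of the tools that the submitters' processing notes list, Bowtie2 (2.3.4.1) and RSEM (1.3.0) stand beside edgeR and CASAVA (2.8.0), with no roles. Settings and strand handling are not given in the sources used here. The authors deposited expected counts rounded to whole numbers (54429 symbols, 53775 of them in GENCODE M21, the rest holding 0.182% of counts), which were used here, and a normalized signal (GETMM), which the authors deposited and which served for the limma alternative. All columns matched a library.

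All 24 libraries were fitted together with edgeR 4.0.16 (R 4.3.3, TMM, robust quasi-likelihood test, filterByExpr with a minimum count of 10, Benjamini-Hochberg adjustment, threshold 0.05). A check on simulated counts gave every gene the same spread, so it does not show how the test performs on these libraries. DESeq2 1.42.0 and limma 3.58.1 were alternatives. Changes within cultures used log2(CPM + 1). A count's precision is limited by depth, and the SEs include it.

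Genes named were Mapkapk2, the 5 genes that mark the comparison, genes past the threshold with or without the culture block, and up to 3 members of each list with the smallest p. Others were chosen after their values were seen, such as Sh3pxd2a, Cp, Arg1 and Tmem26. The members and lists were chosen with earlier results of these data known. The culture numbers were to count as pairs if all 12 within-number correlations of deviations from the group means exceeded 0.1. Only 8 of 12 did (range -0.04 to 0.35, median 0.13), so the fit without the block is the main result. Among pairs of the same genotype with different culture numbers, 10 of 60 exceeded 0.1 (median -0.04). The 3 libraries numbered apart correlated with each other at 0.404 to 0.495, above every within-number value. Their own culture pairs gave 0.01 (WT replicate 3), 0.13 (WT replicate 2) and -0.03 (KO replicate 2). The cause of these correlations was not tested.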

Additional observations from a re-analysis of the deposited data

Results flagged for a closer look

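Csf1 had a different IL-4 response in the 2 genotypes by a test of the difference itself once the culture number was a block in the fit: 1.11 log2 units more in KO. It passed in each of the 12 fits with the block that left out 1 culture. It did not pass without the block (adjusted p = 0.494), nor with the block in replicates 1 to 3 alone (adjusted p = 0.5).

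Lrrc32 was set apart in the same way, with 1.20 log2 units more in KO in the fit with the block. Its call was lost in some fits that left out 1 culture, where the adjusted p was 0.0508 to 0.0884.

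Mapkapk2 in WT M2 replicate 2 stood at 139 CPM, apart from the 5 other WT M2 libraries at 113 to 120 CPM. That library is 1 of the 3 numbered apart. Chance alone sets about 1 in 20 groups of 6 apart by this measure, and 24 groups (6 genes in 4 groups) were looked at.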

How the results depend on the processing

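The count of 0 genes with a different response was also found with RLE size factors, total count scaling, no count filter and a CPM filter. It was 0 as well with the library set and its IL-4 change as terms shared by both genotypes. The same held for replicates 1 to 3 alone, without the 3 libraries numbered apart and without any 1 replicate of either genotype. The count was 1 with DESeq2, 3 with limma on log2(GETMM + 1), 3 with the library set as a term in every group and 21 in replicates 4 to 6 alone. With the replicate number as a replicate block it was 0, and with the culture number as a replicate block it was 2. Together with the culture block it was 2 with RLE size factors, 2 with the CPM filter, 186 with no count filter, 43 in replicates 4 to 6 alone, 5 without the 3 cultures that hold a library numbered apart, 10 in DESeq2, 4 in limma, and 1 to 5 without any 1 culture; the cause was not tested. The fits with total count scaling, with the library set as a term in every group, and with the block beside a second choice were chosen after seeing the data. IL-4 calls numbered 857 in WT and 1472 in KO in replicates 1 to 3 alone, and 999 and 1552 there with the culture block; fewer libraries enter these fits.

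Of the genes named, Fn1, Ccl8 and Chil3 had the opposite sign of difference on the linear CPM scale (-53.9, -2.15 and -13.7), and Ear2, Chil3, Arg1 and Irf4 in replicates 1 to 3 alone (-0.66, -0.29, -0.69 and -0.34; with the culture replicate block -0.54, -0.31, -0.71 and -0.27). Leaving out 1 culture at a time, Arg1 ranged from -0.40 (without WT replicate 6) to 0.99, and from -0.39 to 0.99 with the block. Csf1, Lrrc32, Mgl2, Inpp5a and Pdgfa kept their direction in every fit. Over cultures, an exact two-sided permutation test gave p = 0.00216, the smallest that 6 against 6 allows, for Csf1, Lrrc32, Mgl2 and Inpp5a, and 0.00433 for Pdgfa, as a description of genes chosen for this difference. Depth limits the weakly expressed genes such as Ddah1 and Ptgs2.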

Other observations

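The 2 library sets, replicates 1 to 3 and replicates 4 to 6, gave different numbers of calls when fitted apart. Such counts do not show that the sets differ. The direct test given below called 0 genes for a genotype difference that differed between the sets. Fitted by themselves, replicates 4 to 6 gave 21 genes past the threshold of the difference (17 higher and 4 lower in KO) and replicates 1 to 3 gave 0 (222 at an unadjusted p under 0.05, against 1505). Of the 21 genes, 15 had the same sign of difference in replicates 1 to 3, and 2 of those, Csf1 and Gpc1, also had an unadjusted p under 0.05 there. Gpc1, encoding the heparan sulfate proteoglycan glypican 1, had a difference of 1.05 in replicates 4 to 6 (adjusted p = 0.0135) and 0.95 in replicates 1 to 3. Its changes within cultures did not overlap between the genotypes, which is a description of a gene picked by its p.

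The values of 4 of the 21 genes, chosen after they were seen, were as follows in each set. Tmem26, a membrane protein gene of the alternative activation list, had an IL-4 change of 5.49 and 5.17 in the KO sets and of 5.29 and 2.82 in the WT sets, replicates 1 to 3 given first. Fn1 was at 2.88 in both KO sets, and at 2.10 and 0.83 in the WT sets. Ear2, an eosinophil-type ribonuclease gene with near-identical family members that could share its reads, was at 2.94 and 3.29 in KO and at 3.60 and 1.08 in WT. Bhlhe40 was at 2.25 and 1.94 in KO and at 2.04 and 1.23 in WT.

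The set difference was tested with the set as a term in every group, a fit chosen after these values were seen. In WT, the IL-4 response differed between the sets for 2 genes of 12797 (360 at an unadjusted p under 0.05), Tmem26 (replicates 4 to 6 minus 1 to 3: -2.46, SE 0.39, adjusted p = 0.0328) and Ear2 (-2.51, SE 0.42, adjusted p = 0.0328). Fn1 (adjusted p = 0.955) and Bhlhe40 (adjusted p = 0.104) did not pass this test. In KO the response differed for 0 (773 at an unadjusted p under 0.05), and the genotype difference itself differed between the sets for 0 (447 at an unadjusted p under 0.05). For Csf1 the genotype difference was the same in both sets to within -0.01 (SE 0.37). What distinguishes the sets beyond their library numbers is not given in the labels.

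Other lists held single genes with an unadjusted p under 0.05: the phosphatase gene Inpp1 had a difference of -0.32 (SE 0.14), the chemokine gene Ccl8 of 1.26 (SE 0.55), the chloride channel gene Clic4 of 0.18 (SE 0.08) and the nuclear receptor gene Ppard of 0.31 (SE 0.15). All 9 tested neutrophil markers had a difference above 0 (median 0.24), as did 6 of 9 in replicates 1 to 3 alone (median 0.04) and 8 of 9 in replicates 4 to 6 alone (median 0.50). Their summed level, as CPM of total counts without the TMM scaling, was 299 ± 29.3 (SD, n = 6) in WT M0 and 286 ± 85.5 in WT M2. It was 219 ± 35.7 in KO M0 and 232 ± 36.0 in KO M2.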
